A study of Mus musculus with 30 samples.

Results

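The genes described here encode the major proteins of mouse milk: the caseins Csn1s1, Csn1s2a, Csn2 and Csn3, alpha-lactalbumin (Lalba) and whey acidic protein (Wap). They were chosen by name, and all 6 were found among the 18847 genes of an RNA sequencing table from the thymus of newborn mice. The libraries came from B6.SJL mice of mixed sex that received Trap (aflibercept) or the control antibody hFC on day 1 after birth, and tissue was taken at age 3 days, 2 days after injection. Trap joins parts of VEGF receptors 1 and 2 into a soluble decoy that binds VEGF-A. CD45-positive cells were depleted on magnetic beads, and 5 stromal populations lacking CD3, CD4, CD8, CD45 and Ter119 were sorted. Medullary thymic epithelial cells (mTEC) were EpCAM+ and Ly51 low or negative, cortical thymic epithelial cells (cTEC) were EpCAM+ Ly51+, endothelium was EpCAM- CD31+, and 2 mesenchymal populations, CD146+ and CD140a+, lacked EpCAM and CD31. Each population had 4 Trap and 2 control libraries, 30 in all. The labels number the replicates but give neither the number of animals behind each library nor whether the same animals gave several populations. The tests treat libraries as independent, so p-values measure only the spread between libraries, which may be technical.

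Caseins are the phosphoproteins that carry calcium in milk. Csn1s1 and Csn1s2a encode calcium-sensitive alpha-type caseins, Csn2 encodes beta-casein, and Csn3 encodes kappa-casein, which stabilises the surface of the casein micelle. Lalba is the subunit that makes galactosyltransferase produce lactose, and Wap is a cysteine-rich protein of rodent whey. In the mammary gland these genes are switched on by prolactin through its receptor, the kinase Jak2 and the transcription factor Stat5. In the thymus, mTEC are known for transcribing many genes of other organs at low frequency among cells, with the nuclear regulators Aire and Fezf2 each driving part of this, so that developing T cells meet those proteins as tissue-restricted antigens.

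The casein genes lie in 1 cluster on chromosome 5, and Lalba and Wap lie on other chromosomes. In GRCm38 coordinates from the GENCODE M21 annotation, Csn1s1 (ENSMUSG00000070702) occupies chr5:87666208-87682578 on the plus strand, Csn2 (ENSMUSG00000063157) chr5:87692624-87699630 on the minus strand and Csn1s2a (ENSMUSG00000061937) chr5:87774567-87788797 on the plus strand. Csn3 (ENSMUSG00000001622) occupies chr5:87925579-87932665 on the plus strand. Lalba (ENSMUSG00000022991) lies at chr15:98480400-98482721 and Wap (ENSMUSG00000000381) at chr11:6635482-6638637, both on the minus strand. Csn3 is overlapped by an antisense transcript, 1700066N21Rik, which is not a row of the table. Whether strand was used in counting is not given in the sources used here, so reads of the antisense transcript and of Csn3 cannot be told apart.

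Upstream sequences were matched for 5 of the 6 genes in RefSeq's GRCm38.p6 promoter table, and Csn3 had no match. They are shown because the caseins and Lalba share a program in the mammary gland but had different patterns here. The first 3 lines are the 250 bases before the RefSeq start of Csn1s1 (chr5:87665958-87666207, plus strand), Csn2 (chr5:87699426-87699675, minus strand) and Lalba (chr15:98482684-98482933, minus strand), and the fourth is a 30-base stretch of Csn1s2a (chr5:87774460-87774489, plus strand). Capitals mark matches to TTCNNNGAA, the palindrome bound by Stat5.
Csn1s1: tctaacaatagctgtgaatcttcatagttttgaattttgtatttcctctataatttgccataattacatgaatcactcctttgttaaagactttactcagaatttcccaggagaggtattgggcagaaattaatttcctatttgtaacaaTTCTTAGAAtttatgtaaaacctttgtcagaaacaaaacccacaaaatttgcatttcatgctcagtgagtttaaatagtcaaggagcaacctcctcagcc
Csn2: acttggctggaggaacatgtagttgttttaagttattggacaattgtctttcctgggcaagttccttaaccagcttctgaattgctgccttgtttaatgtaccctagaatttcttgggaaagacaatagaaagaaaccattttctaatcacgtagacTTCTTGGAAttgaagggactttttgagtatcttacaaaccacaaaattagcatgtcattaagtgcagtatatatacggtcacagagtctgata
Lalba: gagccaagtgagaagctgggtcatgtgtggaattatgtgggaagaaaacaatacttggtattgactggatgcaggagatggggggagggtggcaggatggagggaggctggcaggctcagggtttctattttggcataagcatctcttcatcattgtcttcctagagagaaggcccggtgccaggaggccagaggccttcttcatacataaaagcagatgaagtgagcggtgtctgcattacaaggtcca
Csn1s2a: ttatagtgctTTCTTAGAAttacaatgact
Counted from the RefSeq start, the match lay at bases -100 to -92 in Csn1s1 and at -93 to -85 in Csn2, and in Csn1s2a it began at base 21 after the start. The annotations place the starts differently: counted from the GENCODE gene start, the match lay at -100 to -92 in Csn1s1, at -97 to -89 in Csn1s2a and at 112 to 120, inside the gene, in Csn2. The match in Csn1s2a, TTCTTAGAA, has the same 9 letters as that in Csn1s1. No match was found in the 250-base windows of Csn1s2a, Lalba or Wap. The palindrome reads the same on both strands, and 7.02% of 32851 promoter windows of this length held it. A match is a description of letters and was not measured as a site in these cells.

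All values are the authors' FPKM (fragments per kilobase of transcript, normalised for library size), a per-length scale on which levels of different genes can be compared. The libraries summed to 184608 to 241993 FPKM, and 10298 to 13661 genes reached 1 FPKM. The number of reads behind a value is unknown, and a value of 0 means only that the gene is listed at 0. The sorts were checked on marker lists. The summed level of 10 mTEC markers lay between 1125 and 2889 FPKM in mTEC. It was 277.3 to 903.3 FPKM for cTEC and 40.33 to 251.3 FPKM for endothelium. By mean, its largest parts in endothelium were Ccl21a (69.5 FPKM) and Tnfrsf11a (19 FPKM), while Aire had 0.173 FPKM. The mural marker sum, highest in CD146+ cells (4726 to 6182 FPKM), was 506.9 to 759.7 FPKM within mTEC. Rgs5 had a mean of 539 FPKM there. Thymocyte and leukocyte markers summed to 45.83 to 120.6 FPKM for cTEC, and to at most 12.22 FPKM elsewhere. Whether cells of other populations have a part in these sums was not tested. Among the endothelial libraries, Trap replicate 2 stood apart, with 41.8 FPKM over 4 epithelial markers against 1.86 to 13.18 FPKM in the other 5.

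Among the 6 genes, Csn2 had the highest level by far, and it was concentrated in mTEC. Its level in mTEC was 71.44, 53.31, 120.78 and 108.74 FPKM in the 4 Trap libraries, and 107.23 and 89.91 FPKM in the 2 control libraries. The treatment groups overlapped, and the lowest of the 6 values was 53.31 FPKM, while no library of another population passed 1.11 FPKM. Over the 6 mTEC libraries the mean was 91.9 ± 25.6 FPKM (SD, n = 6). Ranked by FPKM among the 18847 genes, Csn2 stood at places 180 to 644 in mTEC (median 254). Aire, the regulator that defines mature mTEC, had 110.41, 96.93, 153.26 and 140.57 FPKM in the Trap libraries and 114.04 and 141.1 FPKM in the controls. Csn2 stood at 55% to 94% of the Aire level (median 71.1%).

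In cTEC, Csn2 was detected in all 6 libraries at a low level: 0.28, 0.44, 0.56 and 0.69 FPKM with Trap, and 0.36 and 1.11 FPKM in controls. The ratio of Csn2 to Aire in cTEC, where Aire was 0.34 to 1.98 FPKM, was 32.9% to 111% (median 58.8%), a range that contains that of mTEC. The mTEC marker sum of the cTEC libraries was given above, and its markers differed widely. By mean, Ccl21a had 475 FPKM in cTEC against 948 FPKM in mTEC, Krt5 77.3 against 352 FPKM, and Fezf2 1.21 against 121 FPKM. The part of mTEC transcripts in the Csn2 values of cTEC was not tested. Outside the epithelium, Csn2 was above 0 in 2 of 18 libraries, endothelial control replicate 2 (0.26 FPKM) and CD146+ control replicate 1 (0.03 FPKM). The order of mean levels was therefore mTEC, cTEC (0.573 FPKM), endothelium (0.0433 FPKM), CD146+ (0.005 FPKM) and CD140a+ (0), and the values of the last 3 overlapped.

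Csn1s2a and Csn1s1 followed the same distribution at lower levels. Csn1s2a had 2.68, 2.19, 5.53 and 4.81 FPKM in the Trap mTEC libraries and 4.01 and 5.76 FPKM in the control mTEC libraries, a mean of 4.16 ± 1.48 FPKM (SD, n = 6). Csn1s1 had 0.43, 1.17, 2.55 and 2.39 FPKM with Trap and 1.77 and 2.3 FPKM in controls, a mean of 1.77 ± 0.828 FPKM (SD, n = 6). For both genes the treatment groups overlapped, and the lowest value was a Trap library. Each was listed at 0 in 22 of the 24 libraries outside mTEC, with a highest value there of 0.01 FPKM for Csn1s2a and 0.02 FPKM for Csn1s1. Within mTEC, Csn1s2a stood at 3.74% to 6.41% of the Csn2 level and Csn1s1 at 0.602% to 2.56%.

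Csn3 was the least abundant of the 4 caseins described here. Its mTEC level was 0.11, 0.29, 1.38 and 0.46 FPKM with Trap and 1.73 and 0.93 FPKM in controls, a mean of 0.817 ± 0.643 FPKM (SD, n = 6). Trap replicate 3 lay between the controls and the other 3 Trap libraries lay below both. Elsewhere it was listed at 0 in 19 of 24 libraries, and the highest value was 1 FPKM, in endothelial Trap replicate 4, which exceeds 4 of the 6 mTEC values. Csn2 alone made up 90.9% to 95.7% of the summed casein FPKM in mTEC (median 93.5%), so the 4 genes were far from equal in level.

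Lalba and Wap did not share the mTEC pattern, and for them the name of a medullary antigen is not borne out by these libraries. Lalba was listed at 0 in all 6 mTEC, all 6 cTEC and all 6 CD140a+ libraries. Of 9 housekeeping genes checked in the 30 libraries, none was listed at 0 anywhere. Lalba was found in endothelium, at 0, 0, 1.39 and 0.18 FPKM with Trap and at 2.63 and 7.62 FPKM in controls. Every Trap library was below both controls. The only other values above 0 were 0.17 and 0.09 FPKM in CD146+ Trap replicates 1 and 2.

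Wap was low everywhere and had no clear home. Its mTEC level was 0.04, 0, 0.62 and 0.37 FPKM with Trap and 0.12 and 1.54 FPKM in controls. In cTEC it was 0.04, 0.3, 0.92 and 0.1 FPKM with Trap and 0.96 and 1.08 FPKM in controls. Endothelium held the highest value, with 0, 0, 0.8 and 0.25 FPKM for Trap and 1 and 3 FPKM for controls. CD146+ mesenchyme ranged over 0 to 0.66 FPKM and CD140a+ mesenchyme over 0 to 0.69 FPKM. By mean the order was endothelium (0.842 FPKM), cTEC (0.567), mTEC (0.448), CD146+ (0.267) and CD140a+ (0.26), and all neighbours overlapped. Endothelial control replicate 2 was the 1 non-mTEC library in which all 6 milk genes were above 0. All 6 were listed at 0 in endothelial Trap replicates 1 and 2, which had the lowest and the highest epithelial marker sum of the endothelial libraries (1.86 and 41.8 FPKM).

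**Figure D1:**
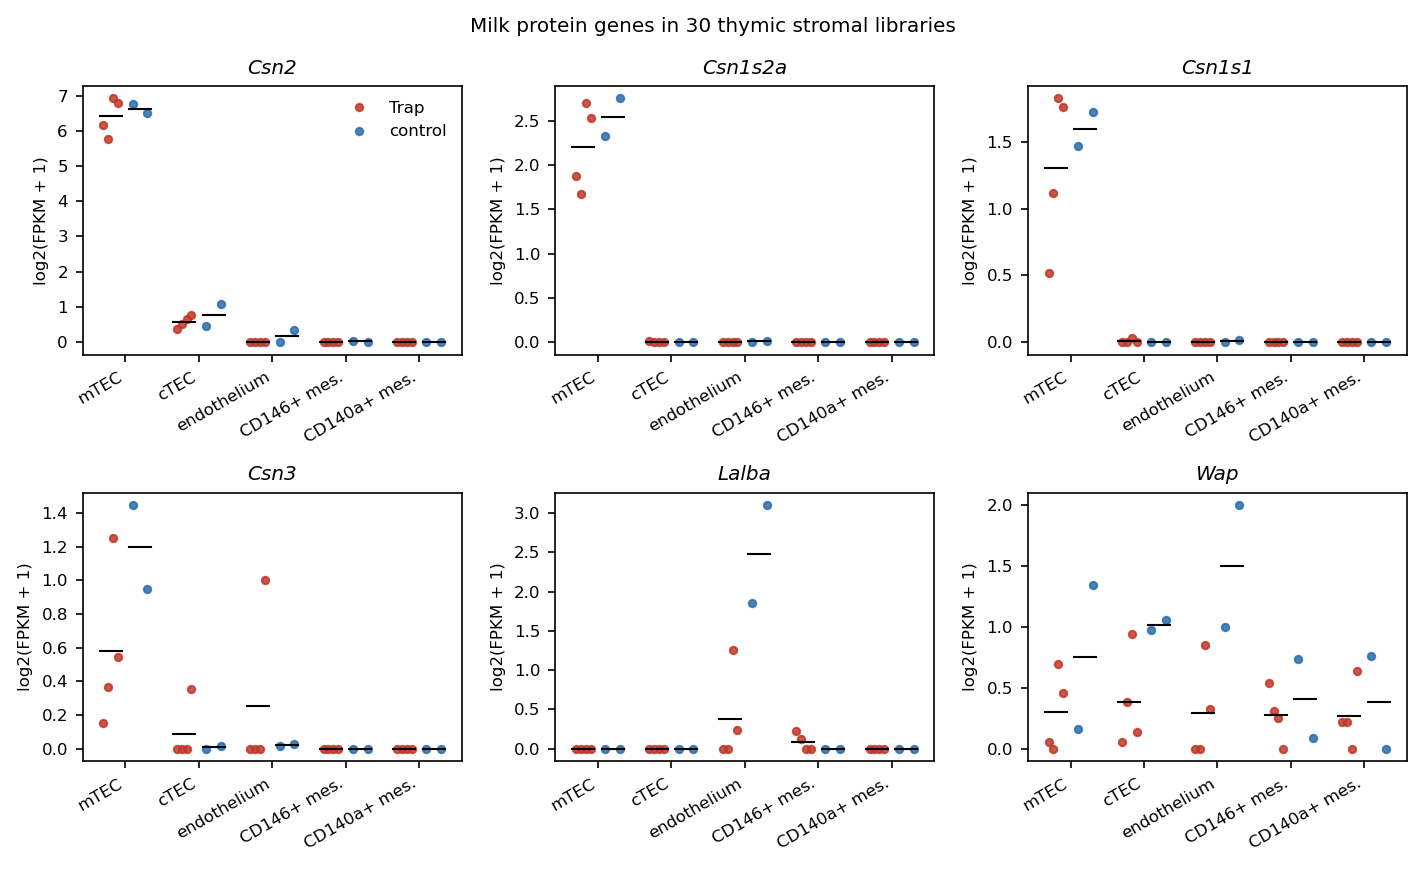
Level of each milk protein gene, as log2(FPKM + 1), in the 30 libraries by population; each point is 1 library (red Trap, 4 per population; blue control, 2 per population), the black line is the group mean on this scale, and the vertical axes differ. The 4 caseins are highest in mTEC, where Csn2 has a mean of 91.9 FPKM, whereas Lalba is at 0 in mTEC and reaches 7.62 FPKM in an endothelial control library.

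Levels were compared on the log2(FPKM + 1) scale with limma, fitted over all 30 libraries and the 16425 genes with at least 1 FPKM in at least 2 libraries; a gene was called at a Benjamini-Hochberg adjusted p under 0.05. This scale understates differences of genes at low levels. Against the mean of the other 4 populations, mTEC were higher in Csn2 by 6.33 ± 0.14 (log2, SE; limma adjusted p = 1.44e-22), in Csn1s2a by 2.37 ± 0.11 (adjusted p = 8.02e-16), in Csn1s1 by 1.45 ± 0.12 (adjusted p = 1.18e-10) and in Csn3 by 0.84 ± 0.14 (adjusted p = 1.06e-05). Lalba was lower in mTEC by a log2 difference of -0.37 ± 0.15 (adjusted p = 0.0368), and Wap had -0.04 ± 0.19 (adjusted p = 0.887). Of all genes tested, 38.4% were called higher in mTEC and 17.5% lower, with a median log2 difference of 0.19, so a call in mTEC is common in itself. Quantile normalization moved that median by -0.33 and turned the split to 26% higher and 35% lower, and rescaling to TPM moved it by -0.12 and gave 30.9% and 23%. Under quantile normalization Csn3 was no longer called (0.32, adjusted p = 0.0601), and Wap was called lower (-0.41, adjusted p = 0.0401). The 4 caseins passed the filter on low values only through mTEC libraries and Lalba only through endothelial libraries, so that genes with these patterns had to differ. Bulk values cannot tell more cells transcribing a gene from more transcript per cell.

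The lower call of Lalba in mTEC was close to the threshold. It was lost in control libraries only (adjusted p = 0.116) and without endothelial control replicate 2, without mTEC control replicate 1 and without mTEC control replicate 2, with adjusted p-values over the 30 single omissions between 0.00365 and 0.11.

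The same caseins were higher in mTEC than in cTEC. They passed the filter only through mTEC libraries, so that genes with this pattern had to differ here too. From cTEC, mTEC differed by 5.86 ± 0.18 in Csn2 (log2, SE; limma adjusted p = 1.23e-18), 2.37 ± 0.14 in Csn1s2a (adjusted p = 3.07e-13), 1.45 ± 0.16 in Csn1s1 (adjusted p = 2.01e-08) and 0.84 ± 0.18 in Csn3 (adjusted p = 3.34e-04). Wap differed by -0.17 ± 0.24 (adjusted p = 0.622), and Lalba was at 0 on both sides. In this contrast 28.3% of genes were called higher in mTEC and 12.9% lower, or 18.8% and 24.4% under quantile normalization, with a shift of -0.28 in the all-gene median. Csn3 was not called under quantile normalization (adjusted p = 0.13).

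The question of the VEGF blockade is whether milk antigens changed in mTEC. No milk gene was called with Trap in mTEC, where 0.0244% of all genes were called higher and 0.323% lower and 1231 genes had an unadjusted p under 0.05. The log2 differences, Trap minus control, were -0.22 ± 0.25 for Csn2 (SE; limma adjusted p = 0.961), -0.34 ± 0.20 for Csn1s2a (adjusted p = 0.814) and -0.29 ± 0.22 for Csn1s1 (adjusted p = 0.912). Csn3 had -0.62 ± 0.25 (adjusted p = 0.516) and was the 1 milk gene with an unadjusted p under 0.05 (0.0202). Wap had -0.45 ± 0.34 (adjusted p = 0.912). An exact permutation test of the 15 ways to place 4 and 2 libraries cannot go below 0.0667 (two-sided), and it gave 0.667 for Csn2 and 0.267 for Csn3. The change of no milk gene in mTEC was called different from its average change in the remaining populations, the smallest limma adjusted p being 0.707 for Csn3 (-0.70 ± 0.28), in a contrast where 0.00609% of genes were called higher and 0.195% lower.

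The caseins varied between mTEC libraries, the less abundant ones more. The coefficient of variation over the 6 libraries was 27.8% for Csn2, 35.6% for Csn1s2a, 46.8% for Csn1s1, 78.8% for Csn3 and 130% for Wap, against 17.4% for Aire and a median of 26.3% over 13576 genes with a mean of at least 1 FPKM in mTEC. Trap replicates 1 and 2 had the lowest Csn2, Csn1s2a and Csn1s1 values, the lowest Aire values, and 12815 and 12828 genes at 1 FPKM or more, against 13374 to 13661 genes in the other 4 libraries. Whether that difference between libraries has a part in the casein values was not tested.

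Over the 6 mTEC libraries, correlations were computed for 15 pairs among Aire, Wap and the caseins, on the log2 scale. Csn2 and Aire had Pearson r = 0.83 (permutation p = 0.0389, adjusted over the 15 pairs 0.13) and Spearman rho = 0.83 (permutation p = 0.0583). Without the 2 libraries of most extreme Csn2, r was 0.18, so that relation rests on those libraries. Csn1s2a and Aire had r = 0.94 (permutation p = 0.00833, adjusted 0.0625) and rho = 0.94 (permutation p = 0.0167), with r = 0.88 without the 2 libraries of most extreme Csn1s2a. Csn1s1 and Aire had r = 0.76 (permutation p = 0.0694, adjusted 0.13), rho = 0.89 (permutation p = 0.0333) and r = 0.99 without the 2 libraries of most extreme Csn1s1. Wap and Aire had r = 0.77 (permutation p = 0.0361, adjusted 0.13), rho = 0.94 (permutation p = 0.0167) and r = 0.97 without such libraries. Csn3 and Aire had r = 0.46 (permutation p = 0.339, adjusted 0.378), rho = 0.6 (permutation p = 0.242) and r = 0.79 without such libraries. No pair with Aire passed 0.05 after adjustment. Csn1s2a and Csn2 had r = 0.86 (permutation p = 0.0472, adjusted 0.13), rho = 0.66 (permutation p = 0.175) and r = -0.23 without such libraries. The smallest adjusted value, 0.0417, was for Csn1s2a and Wap, with r = 0.83 (permutation p = 0.00278), rho = 1 (permutation p = 0.00278) and r = 0.89 without such libraries. A permutation p of 0.00278 is the smallest that 6 libraries allow. Wap ranged over 0 to 1.54 FPKM in mTEC and reached 1 FPKM in only 1 library.

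**Figure D2:**
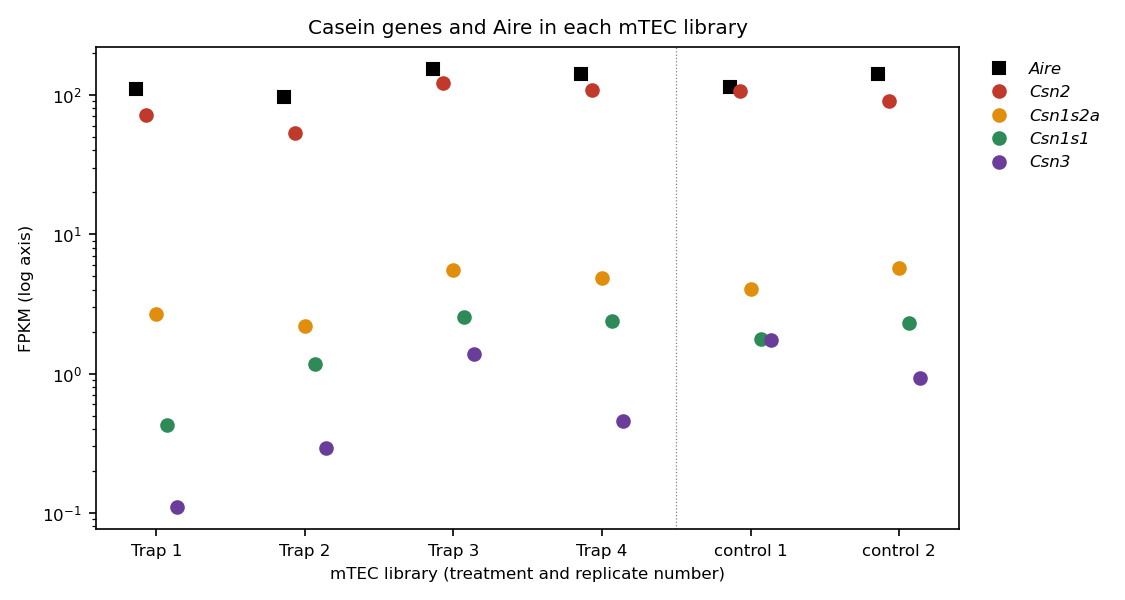
FPKM of Aire (squares) and the 4 casein genes (circles) in each of the 6 mTEC libraries, on a log axis, 4 Trap and 2 control, with points offset sideways for legibility. Csn2 runs just under Aire, between 53.31 and 120.78 FPKM, and the other caseins lie below 6 FPKM.

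In endothelium, Lalba was called lower with Trap in the fit over all 30 libraries but not in the 6 endothelial libraries alone, where its adjusted p was 0.497. The log2 difference was -2.11 ± 0.26 (SE, limma adjusted p = 1.24e-04), and all 4 Trap libraries were below both controls. The pooled spread includes 3 populations in which Lalba was at 0 in every library, and both controls but only 1 Trap library reached the 1 FPKM of the filter. In that comparison 0.323% of genes were called higher and 1.42% lower. The change differed from the average change with Trap elsewhere by -2.13 ± 0.30 (limma adjusted p = 0.00132), where 0.0487% of genes were called higher and 0.231% lower. Single omissions gave -2.73 to -1.49, all called, the smallest without endothelial control replicate 2. When the endothelial library that stood apart, Trap 2, was omitted, the difference was -1.99 (adjusted p = 3.50e-04). The exact permutation p of 0.0667 is the smallest that 4 against 2 libraries allow. The summed level of 7 fibroblast markers moved with treatment in the same libraries, at 17.15, 14.08, 13.98 and 15.78 FPKM with Trap and at 11.73 and 6.49 FPKM in controls. Of these markers 1, Pi16, was called higher with Trap, by 1.22 ± 0.31 (log2, SE, limma adjusted p = 0.0439). Pdgfra was at 0 in control replicate 1 and Dpt in control replicate 2. Genes at 1 FPKM or more numbered 11011, 10298, 11228 and 10572 in the Trap libraries and 11163 and 11304 in controls. The part of the fibroblast markers and of this difference between libraries in the Lalba values was not tested. The absolute level is small: 0.392 ± 0.67 FPKM with Trap (SD, n = 4) against 5.12 ± 3.53 FPKM in controls (SD, n = 2).

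Wap in endothelium had a like difference that missed the threshold, -1.21 ± 0.34 (limma adjusted p = 0.0671), with 0.263 ± 0.377 FPKM for Trap (SD, n = 4) and 2 ± 1.41 FPKM for controls (SD, n = 2). It was called without endothelial Trap replicate 3 (adjusted p = 0.03), without mTEC control replicate 1 (adjusted p = 0.0482) and without mTEC control replicate 2 (adjusted p = 0.0472), and was at -0.71 (adjusted p = 0.439) without endothelial control replicate 2. Trap called no milk gene in cTEC, CD146+ or CD140a+ cells by limma, and none there had an unadjusted p under 0.05. Of all genes, 0% were called higher and 0.00609% lower in cTEC, 0.00609% and 0.0122% in CD146+ and 0% in both directions in CD140a+ cells.

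Neighbours of the caseins were also detected in mTEC. Within 300 kb of a casein start lay 6 other genes of the table. Of these, 4 passed the filter, but 3 (Sult1d1, Sult1b1 and Odam) passed it only through mTEC libraries and so had to differ; the fourth, Sult1e1, was called higher in mTEC, as were 38.4% of all genes. Sult1e1, a sulfotransferase that inactivates oestrogen, had 4.92 FPKM in mTEC (1.6 to 8.56, n = 6) and a log2 difference of 2.06 (limma adjusted p = 1.84e-10). The sulfotransferases Sult1d1 (1.47 FPKM) and Sult1b1 (0.865 FPKM) had log2 differences of 1.22 and 0.92. Odam, an enamel-organ protein that lies between Csn1s2a and Csn3, had 1.47 FPKM in mTEC and a difference of 1.04. The fifth casein gene of the cluster, Csn1s2b, and RP24-324D14.1 were below the filter, at 0.188 and 0.192 FPKM in mTEC. No gene of the cluster came near Csn2, whose neighbours on either side, Csn1s1 and Csn1s2a, start at -33.4 kb and 74.9 kb from its start along the chromosome.

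Around Lalba the table held 21 genes within 300 kb, and of 14 tested, 5 (35.7%) were higher and 4 (28.6%) lower in mTEC, against 38.4% and 17.5% of all genes. The nearest, the olfactory receptor gene Olfr279, starts 9.7 kb away and was also found in endothelium, at 1.59, 0.43, 0.67 and 1.1 FPKM with Trap and at 0.59 and 1.58 FPKM in controls. Its values overlapped between treatments (log2 difference -0.09, limma adjusted p = 0.971), unlike those of Lalba. In mTEC, Olfr279 did not pass 0.07 FPKM. Around Wap there were 10 genes, of which 9 were tested, 3 (33.3%) higher and 1 (11.1%) lower. Neither count stands out from that background.

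**Figure D3:**
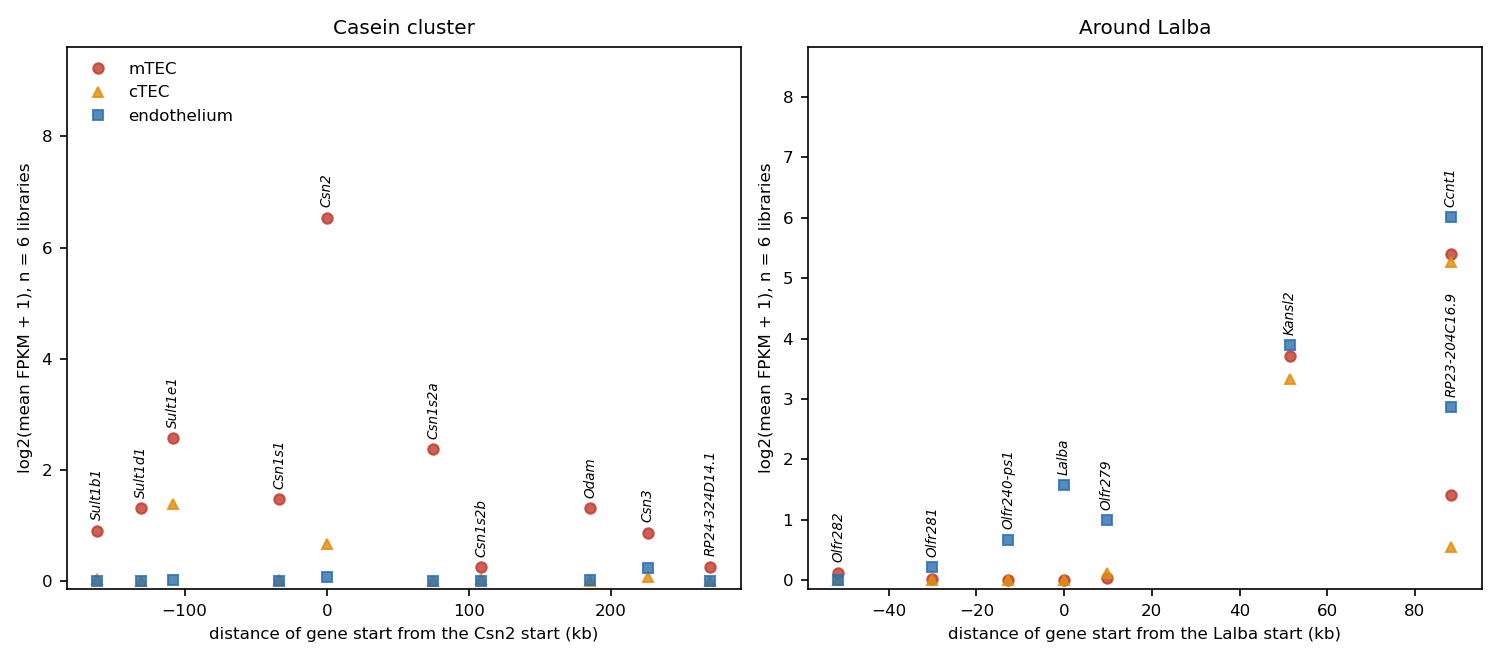
Mean level of each gene, as log2(mean FPKM + 1) over 6 libraries, by distance of its start from that of Csn2 (left, within the cluster) or Lalba (right, up to 100 kb), in mTEC (circles), cTEC (triangles) and endothelium (squares). Genes of the casein cluster have their highest level in mTEC, and Lalba and its nearest neighbours have theirs in endothelium.

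Other genes of milk were divided. Of 23 further milk genes, 20 were tested. In mTEC, 13 (65%) were higher and 3 (15%) lower than the mean of the other 4 populations, against 38.4% and 17.5% of all genes. The median log2 difference was 1.77 against 0.19 over all genes. Of the 20, 6 passed the filter only through mTEC libraries and so favour a higher call; among the other 14, 8 were higher and 3 lower. Wfdc18, a secreted whey-type protein related to Wap, had 172 ± 84.7 FPKM in mTEC (SD, n = 6) and a log2 difference of 6.64 ± 0.25 (limma adjusted p = 3.42e-18), exceeding Csn2 in mean level. Lactoperoxidase (Lpo) had 44 ± 11 FPKM and 4.97 ± 0.15. Pigr, the carrier of secretory antibodies, had 26.9 ± 6.71 FPKM and 4.74 ± 0.12, and the phosphate transporter Slc34a2 had 21.2 ± 4.37 FPKM and 4.14 ± 0.12. The mucins Muc15 (2.78 ± 0.12) and Muc1 (2.51 ± 0.22) were higher too. The 3 lower genes were the oxidase Xdh (-0.41 ± 0.12), Mfge8 (-0.85 ± 0.17) and B4galt1 (-1.21 ± 0.10), the galactosyltransferase that Lalba directs to lactose. Against cTEC alone, B4galt1 was higher in mTEC (0.59 ± 0.13, limma adjusted p = 5.34e-04). Xdh had 12.8 FPKM in mTEC against 33.7 in cTEC and 36.2 in CD140a+ cells, but 12.1 in CD146+ cells and 6.15 in endothelium. Mfge8 had its lowest mean in mTEC. Many of the further milk genes are known to be active in other epithelia as well. In endothelium, 1 gene of the list was called with Trap, Muc1, higher by 2.11 ± 0.39 (limma adjusted p = 0.00517). It had 8.88, 4.89, 4.01 and 3.27 FPKM with Trap and 0.51 and 0.25 FPKM in controls. No gene was called higher there with 1 weight per population or in the endothelial libraries alone, so this call is lost in both. Muc1 also had 11.9 FPKM in CD140a+ mesenchyme, and the fibroblast marker sum given above moved the same way; their part was not tested.

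The lactation pathway itself was mixed in mTEC. Of 19 genes of prolactin signalling and mammary transcription, 18 were tested, and 7 (38.9%) were higher and 8 (44.4%) lower, against 38.4% and 17.5% of all genes, so the share higher is that of the background. The median was 0.12, and it turned to -0.04 after rescaling to TPM and to -0.22 under quantile normalization. The prolactin receptor Prlr was higher, at 2.91 to 6.21 FPKM in the 6 mTEC libraries and by 2.02 ± 0.16 (log2, SE; limma adjusted p = 3.84e-11). Stat5a was higher by 0.57 ± 0.14, while Jak2 was slightly lower (-0.24 ± 0.09) and Stat5b did not pass (0.04 ± 0.13, limma adjusted p = 0.823). By mean, Stat5a had 24.7 FPKM in mTEC and 24.4 FPKM in CD140a+ cells, against 11.4 to 17.4 FPKM elsewhere. Jak2, at 66.1 FPKM in mTEC, was lower than in cTEC (112 FPKM) and endothelium (171 FPKM). It was above its means in CD146+ (55.3 FPKM) and CD140a+ cells (38.9 FPKM). The epithelial ETS factors Ehf (4.92 ± 0.12) and Elf3 (3.00 ± 0.23) were higher. Elf5, the ETS factor of mammary alveolar cells, was below the filter at 0.555 FPKM. Lower in mTEC against the mean of the other populations were Nfib (-1.78 ± 0.07), the glucocorticoid receptor Nr3c1 (-1.26 ± 0.10) and Cebpb (limma adjusted p = 1.56e-04). All are known to act on casein genes in the mammary gland. Cebpb, at 2.87 ± 1.92 FPKM in mTEC (SD, n = 6), was near its means in cTEC (2.67 FPKM) and endothelium (2.84 FPKM). Only the mesenchymal populations were higher, at 19.2 FPKM in CD146+ and 12.7 FPKM in CD140a+ cells.

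Among 8 regulators of tissue-restricted antigens, 4 (50%) were higher and 3 (37.5%) lower in mTEC, with a median of 0.55. Over all genes these values were 38.4%, 17.5% and 0.19. Aire (6.66 ± 0.16) and Fezf2 (6.46 ± 0.15) were followed by the deacetylase Sirt1 (2.08 ± 0.09) and the kinase Hipk2 (1.03 ± 0.10), all higher (log2, SE). Against cTEC alone, Hipk2 was not called (0.12 ± 0.13, limma adjusted p = 0.503), with 47.6 FPKM in mTEC and 41.9 FPKM in cTEC. Of 18 antigens of other organs, 17 were in the table and 12 tested. Of those tested, 10 (83.3%) were higher and 0 lower, with a median of 1.99, beside the same all-gene values. Ins2, Gad1 and Sst passed the filter only through mTEC libraries and so had to differ; among the other 9, 7 were higher, and quantile normalization gave 9 higher and 2 lower of the 12. The pancreatic peptide Iapp (57.3 ± 23.1 FPKM, SD, n = 6) and somatostatin (Sst, 22.7 ± 13.8 FPKM) came nearest to the level of Csn2 in that list. Ins2, an insulin gene, had 1.63 ± 1.13 FPKM, near the level of Csn1s1. With Trap in mTEC, no gene of these 4 lists was called by limma, and their medians were -0.19, -0.13, 0.07 and -0.12 (log2) against -0.04 over all genes.

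**Figure D4:**
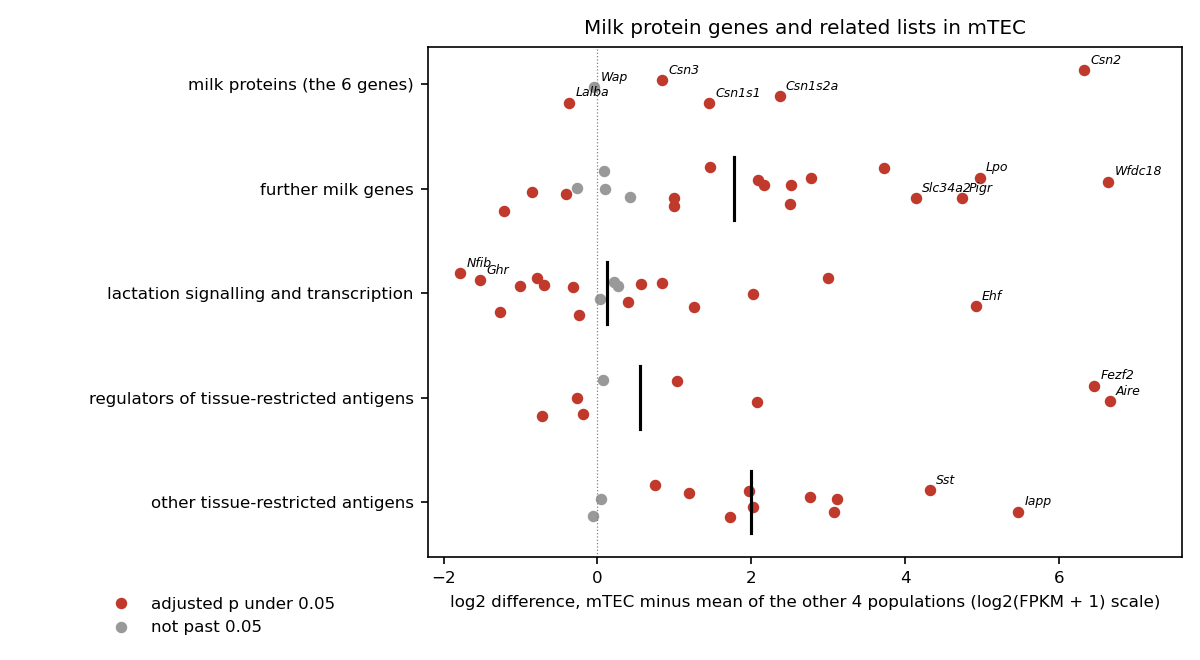
Log2 difference, mTEC minus the mean of the other 4 populations, for the 6 milk protein genes and 4 gene lists; each point is 1 tested gene, red at an adjusted p under 0.05 and grey otherwise, and black bars are list medians (further milk genes 1.77, lactation 0.12, regulators 0.55, other antigens 1.99). Csn2 lies with Aire, Fezf2 and Wfdc18 above 6, and Lalba lies below 0.

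Genes whose pattern was most like each milk gene were ranked by Pearson r of log2(FPKM + 1) over the 30 libraries, as a description, since libraries of 1 population share their cell type. For Csn2 these were Skint2 (0.996), Rptn (0.996), Tmprss4 (0.996), Pigr (0.995) and Sox21 (0.995). Rptn had 59.7 FPKM and Skint2 41 FPKM in mTEC, with less than 1 FPKM in the other populations. For Csn1s2a they were Mucl1 (0.995), Klk6, Cyp2b19, Amtn and Zfp872 (0.993), and for Csn1s1 Ceacam15 (0.991), Adh6a, Krt71, Grpr and Upk3a (0.985). Csn3 had weaker partners, led by Akp3 (0.891) and followed by Pik3ap1, Hoxb6, Ripply2 and Tfap2d (0.854). Lalba was nearest to Rad21l (0.878), Kcne3 (0.869), Rbp7 (0.807), Magix and Abcb4 (0.799), which had their highest mean in endothelium. For Wap the nearest gene was Lalba itself (0.647), then Glyatl3, Serpina1b, Ifi208 and Defb47 (0.619). No casein was among the 5 nearest of another casein.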

How the data were processed

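RNA sequencing of 30 sorted thymic stromal libraries was analysed from the FPKM table that the authors deposited, with values rounded to 2 decimals. Per the labels' protocols, cDNA came from the Ovation RNA-Seq System V2 amplification kit, and a HiSeq3000 read both ends. The submitters' processing notes name bcl2fastq 2.17, STAR, DESeq2, GRCm38 and mm10; which tool did what, the other versions, the annotation and the strand setting are not stated there or in the labels. Depth is unknown, so precision is read from the spread between libraries. Spreadsheet dates standing for 27 symbols were restored by identifier.

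Values were transformed as log2(FPKM + 1). Genes with at least 1 FPKM in at least 2 libraries (16425) were fitted with limma 3.58.1 in R 4.3.3 as 10 group means (eBayes with a mean-variance trend) on the 30 libraries together. Tests were two-sided, with Benjamini-Hochberg adjustment over all genes and a threshold of 0.05. The code was tested on simulated data. Permutation tests used scipy 1.17.1. Alternatives were the pseudocount, filters, scalings, a replicate block, population weights, subsets and single omissions.

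Named genes are the 6 milk genes, the 5 most similar genes each, genes within 300 kb and members of fixed lists. The genes and lists were chosen with earlier results of these data known. The scalings of list counts were added after seeing the data.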

Additional observations from a re-analysis of the deposited data

Results flagged for a closer look

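Within the 4 Trap libraries of a group, 1 library stood far from the rest in 5 cases, each time a single value above libraries that were at or near 0. How often such a gap arises by chance among libraries tied at 0 was not computed, and most of these values are very low. In cTEC, Csn1s1 had 0.02 FPKM in Trap replicate 3, Csn1s2a had 0.01 FPKM in Trap replicate 1, and Csn3 had 0.28 FPKM in Trap replicate 4, while the other 3 Trap libraries were at 0 for each gene. In endothelium, Csn3 had 1 FPKM in Trap replicate 4 and 0 in the other 3, and Lalba had 1.39 FPKM in Trap replicate 3 against 0 to 0.18 FPKM in the other 3.

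The Trap change of Lalba differed between populations: the change in endothelium minus the average change elsewhere was -2.13 ± 0.30 (log2, SE) with a limma adjusted p = 0.00132. In 3 of those other populations, mTEC, cTEC and CD140a+ mesenchyme, Lalba was listed at 0 in every library. It did not pass 0.17 FPKM in CD146+ cells. The contrast therefore largely repeats the endothelial change of -2.11, which was not called in the endothelial libraries alone (limma adjusted p = 0.497).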

How the results depend on the processing

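The casein calls in mTEC kept their direction in all alternatives, with Csn2 between 6.21 and 9.01 (log2), and Csn3 left the tests when 1 FPKM was required in at least 4 libraries. Milk genes called lower in mTEC than elsewhere numbered 1, but 0 with that filter, 0 in control libraries only and 2 with quantile normalization, and 0 to 1 over single omissions. Lower with Trap in endothelium was 1 gene, 0 with that filter, which removes Lalba, and 0 in the endothelial libraries alone, with 1 to 2 over single omissions; for the difference of Trap changes it was 1, and 0 with that filter. Wap changed sign on single omissions, which gave -0.33 to 0.26 for mTEC against the other populations, -0.46 to 0.13 against cTEC and -1.04 to 0.14 for Trap in mTEC. Of the 5 most similar genes, those retained with a pseudocount of 0.1 were 2 for Csn1s1, 2 for Csn1s2a, 3 for Csn2, 2 for Csn3, 2 for Lalba and 2 for Wap, and with Spearman correlation 0 for each gene but Csn2, with 1. The cause was not tested for these.

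Counts over all genes moved more. With Trap in endothelium, 53 were higher and 233 lower, but 17 and 80 without control replicate 1, 93 and 383 without control replicate 2, 0 and 8 in the endothelial libraries alone, and 0 and 13 with population weights. With Trap in mTEC, 4 and 53 became 30 and 175 without a filter, 37 and 127 without control replicate 2, and 0 and 0 in the mTEC libraries alone. Between mTEC and the others, 6304 and 2868 became 4209 and 1622 in controls only.

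The labels do not say whether a replicate number marks shared animals. Within a population, deviations of same-numbered control and Trap libraries correlated at 0.041 and 0.075 in mTEC and at 0.030 and -0.064 in endothelium. The strongest value was -0.275, in CD146+ replicate 2. Libraries of different populations were not compared in this way, so the check cannot show whether populations share animals. The numbers were not used as pairs. With the replicate block, Lalba in endothelium was at -2.17 (adjusted p = 4.06e-04), 1 milk gene was still called there, 4 were called higher in mTEC, and no call of a milk gene changed. List counts in mTEC moved by at most 2 genes under the scalings. Without counts, values near 0 cannot be given a detection limit.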
